A study of Schizosaccharomyces pombe with 6 samples.

Results

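The actin gene *act1* and 9 genes listed with the actin patch were described in fission yeast (*Schizosaccharomyces pombe*) cells. In these cells the nucleoporin gene *nup211* had been placed under a promoter that thiamine represses. The 10 genes were *act1*, *arp2*, *arp3*, *wsp1*, *myo1*, *fim1*, *ain1*, *adf1*, *acp1* and *acp2*. They were chosen by name from the deposited gene annotation, and all 10 were found among the 6291 genes counted.

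mRNA was measured by RNA-Seq in 3 cultures grown with 30 µM (10 µg/mL) thiamine and 3 cultures grown without thiamine. All 6 cultures were of the strain *nup211-so*, which is *h+*, carries the alleles *ade6-M210*, *leu1-32* and *ura4-D18*, and has *ura4+* and the promoter P81nmt1 inserted at *nup211* (*nup211::P81nmt1*), so that insertion was present in both groups. Cells were kept in Edinburgh minimal medium with adenine and leucine. In the thiamine group, thiamine was present for 24 h and then, after a wash, for another 24 h. The growth time and any wash of the cultures without thiamine are not given in the sources used here. The design has no strain with the native *nup211* promoter, so an effect of thiamine itself and an effect of the *nup211* promoter cannot be told apart.

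Actin patches are small, short-lived networks of branched actin filaments at the sites of endocytosis, which in this yeast lie at the growing tips and, during division, beside the septum. The activators Wsp1 and Myo1 switch on the Arp2/3 complex, which builds a new filament on the side of an old one. Capping protein stops filament growth, fimbrin cross-links the filaments and cofilin severs them, and the same pool of actin also forms the cables and the cytokinetic ring.

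The libraries held 37195197 to 48815139 counts with thiamine and 43629667 to 47036833 without, of which ribosomal RNA took 24.6% to 46.3% and 41.2% to 48.98%. Thiamine replicate 1 had 46.3% ribosomal RNA, and the other thiamine libraries 28.7% and 24.6%. *nup211* had 644, 551 and 655 counts with thiamine, against 477, 590 and 473 without. Its level did not pass the test (log2 fold change -0.17, edgeR adjusted p = 0.199), and other genes overlap 87.0% of it. The value turned on the setting: it was -0.81 (adjusted p = 0.000329) with trends of length and GC content removed, -0.47 (adjusted p = 0.00686) with upper quartile scaling and 0.40 (adjusted p = 0.0851) with library totals. *nmt1*, the thiamine-repressed gene whose promoter gave the P81nmt1 promoter, had 0, 3 and 2 counts with thiamine and 1631, 2061 and 1858 without. Other genes overlap 100% of *nmt1* as well. Mating genes of both cell types had counts, and they did not move together. Of the P-cell genes, *map2* had 165 to 235 counts with thiamine and 69 to 78 without, and *map3* had 70 to 100 and 73 to 136. Of the M-cell genes, *mfm1* (114 to 125 with thiamine and 35 to 49 without) and *mam1* (1281 to 1470 and 867 to 1084) had more counts with thiamine, *mam2* (419 to 543 and 907 to 1335) had fewer, and *mfm2* (9 to 18 and 13 to 36) overlapped. These genes therefore do not settle the labelled mating type.

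Of the 10 genes, 5 were lower with thiamine, 0 were higher and 5 did not pass the test. Levels are given as CPM, counts per 1000000 counts of the library, after TMM scaling, which sets the bulk of the genes equal between libraries, and fold changes are log2 of thiamine over no thiamine with their standard error (SE). The 5 that fell were the capping protein subunits *acp1* and *acp2*, cofilin *adf1*, fimbrin *fim1* and the Arp2/3 subunit *arp2*. The calls are from edgeR's quasi-likelihood test at an adjusted p under 0.05, which called 69.8% of the 5434 genes tested, 35.3% lower and 34.5% higher. The median log2 fold change was -0.24 over the 10 genes and -0.01 over all genes tested.

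The TMM scaling bears on these directions. With library totals in its place the median of all genes moved to 0.57, and *act1* (0.55), *arp2* (0.35), *arp3* (0.34) and *acp2* (0.12) were above 0. With totals without ribosomal RNA the median was 0.31, and *act1* (0.29), *arp2* (0.08) and *arp3* (0.08) were above 0. Relative to the median of all genes, the median of the 10 genes was lower by 0.19 to 0.29 under every setting tried, so the changes are relative to the bulk of the genes. A change of scaling moves all genes by about the same amount, so the scalings could hardly alter this difference and do not test it. As these are shares of a library, less of a transcript in each cell and fewer cells with it cannot be told apart. Without thiamine replicate 1, 4 of the 10 genes were called lower, as *arp2* was not.

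**Figure D1:**
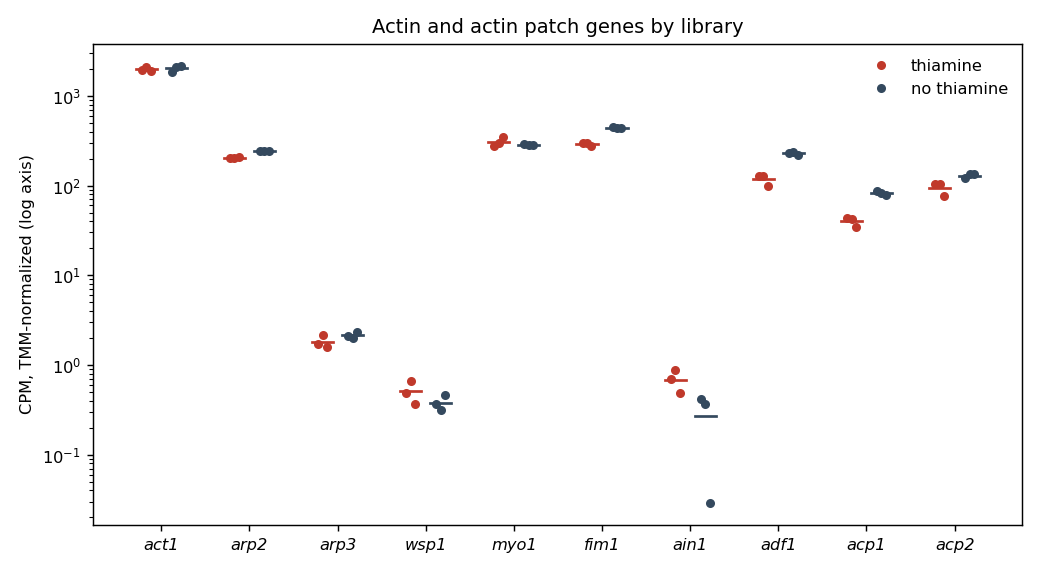
CPM (TMM-scaled, log axis) of the 10 genes in each library, with thiamine left and no thiamine right for each gene, points for libraries and bars for means of 3. *adf1*, *fim1*, *acp1*, *acp2* and *arp2* lie lower in all 3 thiamine libraries, and *arp3*, *wsp1* and *ain1* lie under 3 CPM in all 6.

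*act1* (SPBC32H8.12c), the only gene of actin in this yeast, lies on chromosome II at 1475485 to 1477333, minus strand (ASM294v3), in 1 exon with a coding sequence of 1128 bp. It was also the reference gene of the study's RT-qPCR, and the primers used for it are shown because ratios to *act1* are given further on.

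Act1-F: acgtcgctttggactttga

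Act1-R: cgctcgtttccgatagtgataa

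Each primer matched the genome exactly at 1 place, Act1-F at chrII:1476606-1476624 and Act1-R at chrII:1476516-1476537, both in the coding exon of *act1*. They bound a stretch of 109 bp, which covers coding bases 653 to 761. No other counted gene overlaps *act1*.

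*act1* had 1957, 2120 and 1893 CPM with thiamine, against 1829, 2117 and 2160 CPM without. The groups overlapped, and the lowest and the highest library were both without thiamine. The means were 1990 ± 117 CPM with thiamine and 2036 ± 180 CPM without (SD, n = 3 each), with a log2 fold change of -0.03 (SE 0.13, adjusted p = 0.838). Per kb of transcript *act1* was the highest of the 6 genes with little overlap, at 1086 ± 63.9 CPM per kb with thiamine and 1110 ± 98.3 without.

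The Arp2/3 complex carries the actin-related proteins Arp2 and Arp3, which form the first subunits of a new branch. *arp2* (SPAC11H11.06) lies on chromosome I at 4783022 to 4784765, plus strand, in 2 exons, and no other gene overlaps it. It had 202, 203 and 210.8 CPM with thiamine, against 241, 243 and 243 CPM without. All 3 thiamine libraries were lower, and the libraries of each group lay close together. The fall was small, to 205 ± 4.69 CPM with thiamine against 242 ± 1.09 CPM without (SD, n = 3 each), and the log2 fold change was -0.24 (SE 0.08, adjusted p = 0.0250). The call was lost when any library other than thiamine replicate 3 was left out (adjusted p 0.0555 to 0.0919), while the fold change stayed between -0.27 and -0.23.

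*arp3* (SPAC630.03, chromosome I, 350433 to 352296, plus strand, 5 exons) had 83, 105 and 85 counts with thiamine and 81, 77 and 81 without. The groups overlapped once scaled, at 1.82 ± 0.321 CPM with thiamine and 2.16 ± 0.170 CPM without (SD, n = 3 each), and the log2 fold change of -0.24 (SE 0.20) did not pass the test (adjusted p = 0.305). Its whole span lies within SPAC630.04c on the opposite strand, which had 1364 to 4842 counts. The kit keeps strand, but how the reads were counted is not given in the sources used here, so the counts of *arp3*, and likewise those of *wsp1* and *ain1*, which other genes also overlap over most of their span, may not stand for their levels. Across protein-coding genes the 561 genes overlapped over at least 90% had a median of 8.17 counts for each kb in a library, and the 1891 genes that no other gene overlaps a median of 1217.

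Of the activators, *myo1*, the type I myosin (SPBC146.13c, chromosome II, 1023963 to 1027973, minus strand, 2 exons), had 278, 301 and 347 CPM with thiamine, against 288, 280 and 280 CPM without. Thiamine replicate 3 was the highest and thiamine replicate 1 the lowest, so the groups overlapped. The means were 309 ± 35.5 CPM with thiamine and 283 ± 4.28 CPM without (SD, n = 3 each), and the log2 fold change of 0.13 (SE 0.11) did not pass the test (adjusted p = 0.314). At 4186 bp *myo1* has the longest transcript of the 10. With trends of length and GC content taken out of each library its fold change was -0.31 (adjusted p = 0.0117), and with library totals it was 0.73 (adjusted p = 0.00329).

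*wsp1*, the yeast relative of the Wiskott-Aldrich syndrome protein (SPAC4F10.15c, chromosome I, 4861253 to 4863507, minus strand, 4 exons), had 24, 32 and 20 counts with thiamine and 14, 12 and 16 without. As for *arp3*, these counts may not stand for the level, since other annotated genes overlap 100% of its span, 2067 bp of it by the antisense transcript *wsp1-antisense-1*, which itself had 1 to 19 counts. The groups overlapped after scaling (0.510 ± 0.148 CPM with thiamine and 0.380 ± 0.0759 CPM without, SD, n = 3 each), with a log2 fold change of 0.42 (SE 0.35, adjusted p = 0.310).

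Both cross-linkers of the list bind neighbouring filaments together. Fimbrin, *fim1* (SPBC1778.06c, chromosome II, 3106242 to 3108808, minus strand, 3 exons), had 296, 298 and 278 CPM with thiamine, against 450, 444 and 435 CPM without. All thiamine libraries were lower, and the gap between the groups was wider than the spread within them. It fell to 291 ± 10.7 CPM with thiamine, against 443 ± 7.61 CPM without (SD, n = 3 each), or 0.656 times the level, with a log2 fold change of -0.61 (SE 0.09, adjusted p = 0.000364).

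α-Actinin, *ain1* (SPAC15A10.08, chromosome I, 3692790 to 3695013, plus strand, 3 exons), is known mainly from the cytokinetic ring. It had 34, 42 and 26 counts with thiamine, against 16, 14 and 1 without. All 3 thiamine libraries were higher, and *ain1* was the only one of the 10 genes whose groups were apart in that direction. Its log2 fold change of 1.30 (SE 0.58) did not pass the test (adjusted p = 0.0728), and without no-thiamine replicate 3, which held 1 count, it was 0.80 (adjusted p = 0.115). It passed the test in 5 of 16 alternative settings: library totals (1.83, adjusted p = 0.000692), totals without ribosomal RNA (1.61, adjusted p = 0.0292), equal *act1* counts (1.30, adjusted p = 0.0321), the replicate block (1.43, adjusted p = 0.0386) and without thiamine replicate 3 (1.49, adjusted p = 0.0310). Other genes overlap 89.7% of *ain1*, mostly the antisense transcript *ain1-antisense-1* (1955 bp, 1 to 6 counts), so its counts too may not stand for its level. Only 228 bp at its 3′ end, chrI:3694746-3694973, are free of other genes, and the coding part of that stretch, at chrI:3694746-3694891 on the plus strand of ASM294v3, is shown because it is the only coding sequence of *ain1* that no other gene overlaps. Capitals mark the stop codon.

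ain1: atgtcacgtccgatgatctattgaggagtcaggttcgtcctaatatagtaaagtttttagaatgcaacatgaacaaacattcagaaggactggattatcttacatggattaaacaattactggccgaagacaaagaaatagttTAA

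Cofilin, *adf1* (SPAC20G4.06c, chromosome I, 4825257 to 4826126, minus strand, 3 exons), severs old filaments. It had 126, 128 and 100 CPM with thiamine, against 232, 237 and 217 CPM without. Every thiamine library lay far under every library without thiamine, and thiamine replicate 3 was the lowest. The level fell to 118 ± 15.5 CPM with thiamine, against 229 ± 10.6 CPM without (SD, n = 3 each), which is 0.516 times the level, with a log2 fold change of -0.96 (SE 0.11, adjusted p = 7.9e-05). No other gene overlaps *adf1*, whose transcript of 629 bp is the shortest of the 10.

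Capping protein is a dimer of Acp1 and Acp2 that blocks the growing filament end. *acp1* (SPAC12B10.07, chromosome I, 4585215 to 4586536, plus strand, 3 exons) had 43.4, 42.2 and 35.0 CPM with thiamine, against 87.0, 81.7 and 79.0 CPM without. The groups were apart, and its fall was close in size to that of *adf1*. It fell to 40.2 ± 4.54 CPM with thiamine, against 82.6 ± 4.03 CPM without (SD, n = 3 each), with a log2 fold change of -1.04 (SE 0.10, adjusted p = 2.5e-05). Other genes overlap 47.8% of the deposited span of *acp1*, which begins upstream of the RefSeq start, most of it by *emi5* with 2 to 23 counts.

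*acp2* (SPAC631.01c, chromosome I, 2104030 to 2105433, minus strand, 3 exons) had 103, 104 and 77.5 CPM with thiamine, against 121, 133 and 134 CPM without. The groups were apart, with thiamine replicate 3 the lowest library. It fell to 94.9 ± 15.1 CPM with thiamine, against 129 ± 6.90 CPM without (SD, n = 3 each), and the log2 fold change was -0.45 (SE 0.12, adjusted p = 0.00897). Its partner *acp1* thus had the larger fall.

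Thus the groups did not overlap for 6 of the 10 genes, lower with thiamine for 5 and higher for *ain1*, while the groups did not overlap for 75.5% of all genes tested, and 38.2% were lower in every thiamine library. Leaving aside *arp3*, *wsp1* and *ain1*, which other genes overlap over at least 80%, 5 of 7 genes were called lower and their median log2 fold change was -0.45. Of all genes tested, whatever their overlap, 35.3% were called lower. The spread between libraries, relative to the mean, was wider with thiamine for all but *act1* and *ain1*. Among the genes that fell it was widest for *adf1*, *acp1* and *acp2*, with coefficients of variation of 13.1%, 11.3% and 15.9% with thiamine and 4.65%, 4.88% and 5.33% without. In all 3 genes the lowest value came from thiamine replicate 3.

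Per kb of transcript, the 6 genes of which other genes overlap under 10% could be ordered by level. With thiamine, *act1* was followed by *adf1* at 188 ± 24.6, *arp2* at 120 ± 2.75, *fim1* at 117 ± 4.30, *acp2* at 78.5 ± 12.5 and *myo1* at 73.8 ± 8.48 CPM per kb (SD, n = 3). In that order *arp2* and *fim1*, and *acp2* and *myo1*, differed by less than their spread. Without thiamine, *adf1* at 364 ± 16.9 was followed by *fim1* at 179 ± 3.07, *arp2* at 142 ± 0.638, *acp2* at 107 ± 5.71 and *myo1* at 67.5 ± 1.02 CPM per kb, and no neighbours lay within their spread. The step between actin and the next gene was therefore wider with thiamine, as *act1* did not pass the test and *adf1* fell.

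A ratio of 2 genes within a library does not depend on how libraries are scaled, so the 9 other genes were set against *act1* in each library. Trends of length and GC content were not taken out of these ratios, and the genes differ in length. The transcript of *act1* has 1833 bp, that of *adf1* 629 bp and that of *myo1* 4186 bp. An exact permutation test over 3 against 3 libraries cannot go below p = 0.1 (two-sided), so these ratios can be described as apart or overlapping but cannot pass a threshold of 0.05. Of the 9 ratios, 5 were lower in every thiamine library, 1 was higher and 3 overlapped, and over all genes 34.7% were lower in every thiamine library relative to *act1* and 34.7% were higher.

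*adf1* stood at 6.46%, 6.02% and 5.29% of the *act1* count with thiamine, against 12.7%, 11.2% and 10.0% without. All 3 thiamine libraries lay under all 3 others, and the difference in mean log2 ratio was -0.93 (exact permutation p = 0.1, adjusted over 9 ratios 0.15). *acp1* stood at 2.22%, 1.99% and 1.85% with thiamine, against 4.75%, 3.86% and 3.66% without, a log2 difference of -1.01. *fim1* stood at 15.1%, 14.0% and 14.7% with thiamine, against 24.6%, 21.0% and 20.1% without, a log2 difference of -0.58. For *acp2* the ratios were 5.26%, 4.91% and 4.09% with thiamine and 6.64%, 6.28% and 6.19% without (log2 difference -0.43). *arp2* came nearest to overlapping, at 10.3%, 9.59% and 11.1% with thiamine and 13.2%, 11.5% and 11.2% without (log2 difference -0.21, and -0.14 without no-thiamine replicate 1), and each of these ratios had the same exact p and adjusted p as *adf1*.

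The ratio of *myo1* to *act1* overlapped between the groups, at 14.2%, 14.2% and 18.4% with thiamine and 15.7%, 13.2% and 13.0% without (log2 difference 0.15, exact permutation p = 0.5). The ratios of *arp3* (log2 difference -0.22, exact permutation p = 0.2) and *wsp1* (0.43, exact permutation p = 0.3) overlapped as well. That of *ain1* was higher in every thiamine library, by 2.05 on the log2 scale (exact permutation p = 0.1), and by 0.75 without no-thiamine replicate 3, which held 1 count of *ain1*.

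**Figure D2:**
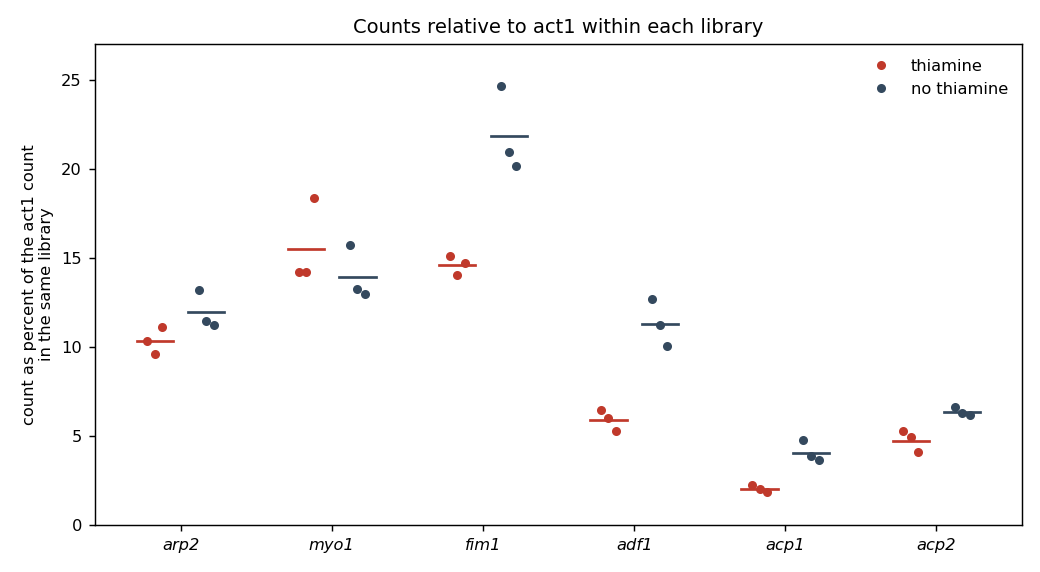
Counts of 6 genes as a percentage of the *act1* count in the same library (linear axis, thiamine left, no thiamine right, points for libraries, bars for means of 3 taken on the log2 scale). *fim1*, *adf1*, *acp1*, *acp2* and *arp2* lie lower in all 3 thiamine libraries, and *myo1* overlaps.

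Pairs that work together were also set against each other within libraries, in 4 ratios. Of the capping protein subunits, *acp2* stood at 238%, 247% and 222% of *acp1* with thiamine, against 140%, 163% and 169% without. The ratio was higher in every thiamine library, by 0.59 on the log2 scale (exact permutation p = 0.1, adjusted over 4 ratios 0.2). The share of all gene pairs whose ratios were apart was not computed. Against *act1*, 34.7% of all genes were lower and 34.7% higher in every thiamine library, so a ratio that is apart is common in these data. *arp3* over *arp2* differed by -0.02 on the log2 scale (exact permutation p = 1), and *wsp1* over *myo1* by 0.28 (exact permutation p = 0.5). *fim1* over *ain1* was lower in every thiamine library, with a log2 difference of -2.63 (exact permutation p = 0.1, adjusted 0.2), and of -1.39 without no-thiamine replicate 3. Other genes overlap 100% of *arp3* and *wsp1*, 89.7% of *ain1* and 47.8% of the deposited span of *acp1*. The ratios that hold these genes may therefore not stand for the levels of the pairs.

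Some of the calls turned on the scaling. *acp1* was called lower under all 16 alternative settings, *adf1* and *fim1* under 15 and *acp2* under 14. The exception for *adf1* and *fim1* was scaling by library totals, where their log2 fold changes were -0.39 (adjusted p = 0.130) and -0.03 (adjusted p = 0.914). *arp2* was called in 7 of the 16, *ain1* in 5, *myo1* in 4 (higher in some and lower in others), *act1* and *arp3* in 1 each, and *wsp1* in 0.

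**Figure D3:**
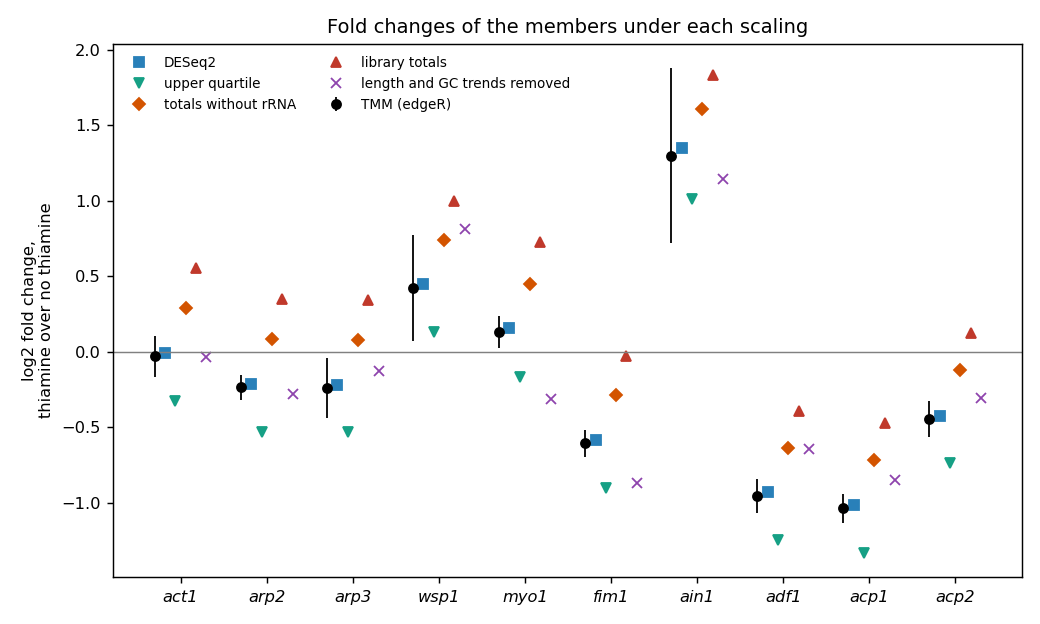
Log2 fold change of the 10 genes, thiamine over no thiamine, with TMM scaling (black, bars are SE) and under 5 other settings. *acp1*, *adf1* and *fim1* lie under 0 in all 6 settings shown, *fim1* only at -0.03 with library totals, and library totals lie above the TMM value for all 10 genes.

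Fold change moved with gene length in these libraries. Spearman's rho between transcript length and log2 fold change was 0.21 across 5424 genes, which are not independent replicates, and the median log2 fold change was -0.33 in the shortest of 5 length groups (74 to 1032 bp) and 0.31 in the longest (2850 to 15022 bp). *adf1* lies in the shortest group and *myo1* in the longest. The rho and the length groups used deposited transcript lengths, while the trends were fitted to RefSeq exon length and GC content. These lengths can differ, as for *acp1*, which starts at 4584465 in the deposited positions and at 4585215 in RefSeq. With these trends taken out of each library, *fim1* (-0.87), *acp1* (-0.85), *adf1* (-0.64), *acp2* (-0.31) and *arp2* (-0.28) were still called lower. *myo1* (-0.31) was called lower too, and *act1* was at -0.04.

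**Figure D4:**
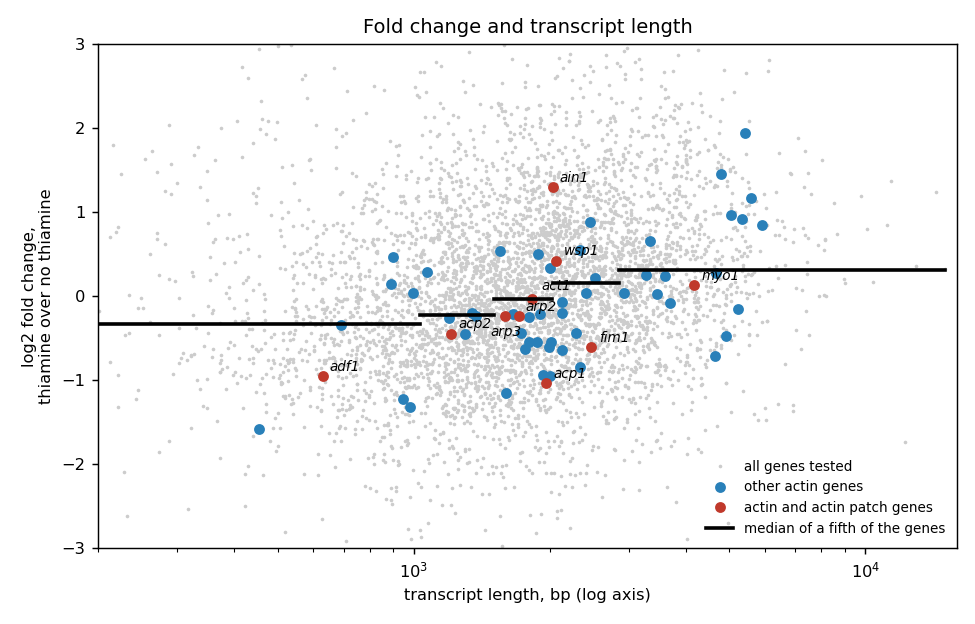
Log2 fold change, thiamine over no thiamine, against transcript length (log axis) for all genes tested (grey), other actin genes (blue) and the 10 genes (red), with the medians of 5 length groups as black lines; 136 genes lie outside the plotted range. The medians climb with length. *adf1*, *acp1*, *fim1*, *acp2*, *arp2*, *arp3* and *myo1* lie under the line of their own length group, and *act1*, *ain1* and *wsp1* do not.

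The other genes of actin were read from 6 lists of 52 genes, all of which were tested. Of these, 15 were higher, 18 were lower and 19 did not pass the test, with a median log2 fold change of -0.18. For the lists too, the shares of all genes called, 34.5% higher and 35.3% lower, are the background. Fold changes of single genes in the following are from the same edgeR fit, with trends of length and GC content left in. Of the genes named, *pan1* (5591 bp), *shd1* (4782 bp), *for3* (5406 bp) and *myo2* (5032 bp) rose. *cdc3* (454 bp), *cdc8* (980 bp) and *arc3* (949 bp) fell. Not all were ordered so, as *cam1* (1550 bp) rose and *bzz1* (2338 bp) fell. Whether length bears on the contrast between the lists was not tested. With the trends removed, 14 of the 52 genes were higher and 18 lower.

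Among the other 5 subunits of the Arp2/3 complex, 4 were lower and 0 higher, with a median log2 fold change of -0.35. *arc3* had 42.0, 42.7 and 39.6 CPM with thiamine, against 97.6, 98.2 and 94.8 CPM without. The libraries of each group lay within a few CPM of each other, and the log2 fold change of -1.22 (SE 0.07, adjusted p = 1.9e-06) was larger than that of *arp2*. *arc2* followed at -0.46 (SE 0.14, adjusted p = 0.0163), and *arc1* at -0.24 did not pass (adjusted p = 0.0791).

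In the list of the endocytic coat and nucleation, 8 of 15 genes were higher and 2 lower, with a median of 0.24. The coat and scaffold genes *shd1* and *pan1* had the largest rises. *pan1* had 552, 578 and 572 CPM with thiamine, against 240, 268 and 247 CPM without, a log2 fold change of 1.17 (SE 0.10, adjusted p = 1.2e-05). *shd1* averaged 265 ± 44.3 CPM with thiamine and 97.3 ± 5.34 CPM without (SD, n = 3 each), and the log2 fold change was 1.45. The 2 that fell were *bzz1* (-0.85), an adaptor that binds membrane and activators, and the kinase gene *ppk38* (-0.61). Other genes overlap 73.0% of *bzz1*, so its counts may not stand for its level.

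Of 7 genes of filament binding and turnover, 1 was higher and 1 lower. The fall was of twinfilin, *twf1* (-0.21, adjusted p = 0.0242), which binds actin monomers. The rise was of *app1* (0.55, adjusted p = 0.000283), which the reference annotates as a phosphatidate phosphatase.

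Of 8 genes of actin cables and the ring, 3 were higher and 4 lower. The formin gene *for3*, whose product builds cables, had 77.0, 77.3 and 89.1 CPM with thiamine, against 21.3, 20.6 and 21.7 CPM without, a log2 fold change of 1.94 (SE 0.09, adjusted p = 5.9e-07). *myo2*, the myosin of the ring, rose by 0.97. Profilin *cdc3*, which feeds actin monomers to formins, had 113, 118 and 79.2 CPM with thiamine, against 295, 320 and 312 CPM without (log2 fold change -1.58), and tropomyosin *cdc8*, which coats cables and the ring, fell by 1.32 on the log2 scale. In both, the groups were far apart and thiamine replicate 3 was the lowest library, as in *adf1*, *acp1* and *acp2*.

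Of 10 genes of myosin light chains and actin folding, 3 were higher and 3 lower. Calmodulin *cam1* rose by 0.53, with 267 ± 7.44 CPM with thiamine and 184 ± 5.15 CPM without (SD, n = 3 each). *cct4*, a subunit of the chaperonin that folds actin, rose by 0.50 (adjusted p = 0.0487), at 3.91 CPM with thiamine and 2.77 CPM without, and other genes overlap 91.4% of it. Of the other chaperonin subunits, *cct7* (-0.95) and *cct1* (-0.94) had the largest falls. Of 7 actin-related proteins outside the patch, many of them subunits of chromatin remodellers, 4 were lower and 0 higher, led by *arp6* (-1.16, adjusted p = 1.0e-05) and *alp5* (-0.55).

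**Figure D5:**
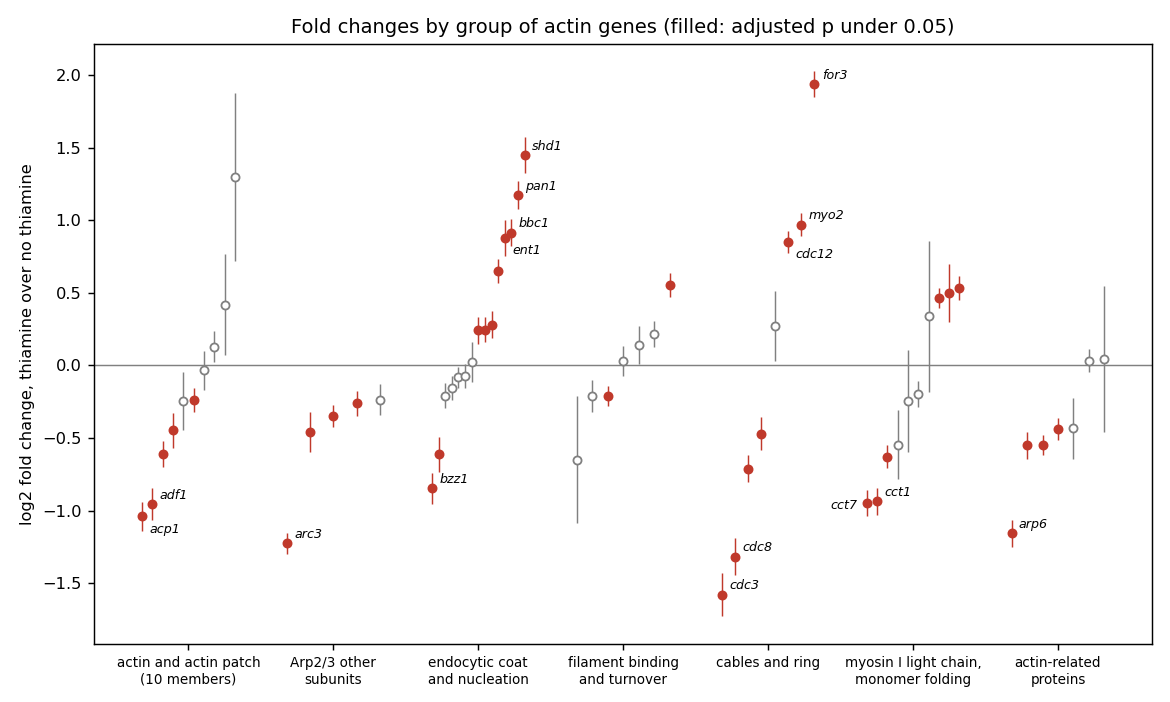
Log2 fold change, thiamine over no thiamine, of the 10 genes and of 6 lists of other actin genes (bars are SE, filled points have an adjusted p under 0.05, called genes beyond 0.8 are named). The Arp2/3 and actin-related lists hold no gene that was called higher, and the endocytic coat list holds 8.

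The promoters of the 10 genes were searched on both strands, over 250 bases before and 50 after the RefSeq start. TATAAA was present in 5 of 10, those of *adf1*, *ain1*, *arp2*, *wsp1* and *acp2*, and in 48.1% of 5038 promoters. TGACGT (5.92% of all promoters), ACGCGT (3.28%) and GTAAACA (16.3%) were present in 0 of the 10. Of the 5 genes that fell, 3 held TATAAA and *fim1* and *acp1* did not.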

How the data were processed

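RNA was prepared with a kit that selects polyadenylated RNA and keeps strand. The deposited values were read counts per gene, not normalized, of 6 libraries, over 6291 genes with at least 5 counts each in total, and other columns with gene positions and transcript lengths in bp. The submitters' processing notes name STAR and DESeq2; the counting program, the genome build and the versions are not given in the sources used here. A deposited table of the authors' own DESeq2 comparison (mean normalized count, log2 fold change, its standard error, statistic, p-values and −log10 p) was not used. All count columns were mapped to samples (0 were left over).

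Positions, exons and sequences were from RefSeq on ASM294v3, where 6232 of 6233 deposited positions overlapped (99.98%). Counts were tested in edgeR 4.0.16 (R 4.3.3) with the robust quasi-likelihood F test, TMM and the default filter, which kept 5434 genes, and p-values were adjusted by Benjamini and Hochberg over these. The SE was derived from the F statistic. Levels are CPM, counts per 1000000 of the TMM-scaled library. Trends of RefSeq exon length and GC content were removed by loess (span 0.5). DESeq2 1.42.0, 5 other scalings, no filter, a replicate block and leaving out each library were alternatives. Ratios were tested by an exact permutation test, two-sided. Other steps used Python 3.11.15, NumPy 2.4.6, SciPy 1.17.1, pandas 2.3.3 and matplotlib 3.10.9.

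On simulated counts of 5380 genes the edgeR step recovered 95 of 100 genes changed by a log2 size of 1 and 100 of 100 changed by 2, with 5 false calls. Only these genes were changed, evenly up and down, and all genes had the same dispersion. In the data 69.8% of the genes tested were called, so these rates do not carry over to the data. The simulation did not test the choice of scaling.

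The labels call the replicates biological. Chi-square per degree of freedom between replicates was 36.7 to 1078, so each was counted as a library of its own. The members and lists were chosen with earlier results of these data known. Named were all members, *nup211*, *nmt1*, the mating genes, and per list up to 2 called genes with the largest rise and 2 with the largest fall; *arc1* and the overlapping genes were added after their values were seen. A further promoter motif is not reported here.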

Additional observations from a re-analysis of the deposited data

How the results depend on the processing

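Of the 16 alternatives, 5 moved the count of members called higher above 0: 3 with library totals (*act1*, *myo1* and *ain1*), 2 with totals without ribosomal RNA (*myo1* and *ain1*), and 1, *ain1*, with libraries scaled to equal *act1* counts, with the replicate block, and without thiamine replicate 3 (0 to 1 when leaving out a library in turn). The count called lower was 1 with library totals and 3 with totals without ribosomal RNA, and 4 to 5 when leaving out a library. In the other lists, library totals gave 23 higher and 4 lower, the upper quartile 28 lower, and totals without ribosomal RNA 10 lower; leaving out a library gave 11 to 15 higher and 16 to 21 lower. Reversed log2 fold changes were 0.55 for *act1*, 0.35 for *arp2* and 0.12 for *acp2* with library totals, 0.0835 for *arp2* with totals without ribosomal RNA, and -0.31 for *myo1* with length and GC trends removed (-0.32 with the block added). *nup211* passed the test with the upper quartile (-0.47) and with length and GC trends removed (-0.81, also with the block), and lay between -0.25 and -0.09 without 1 library. The cause was not tested. Of all genes called, 49.5% were higher with TMM, 82.2% with library totals, 34.6% with the upper quartile and 68.0% with totals without ribosomal RNA; lower calls were 1917 with TMM and 588 with library totals. The ratios to *act1* lower in every thiamine library numbered 5 to 6, and the partner ratios 1, whichever library was left out.

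Libraries of the same replicate number did not deviate together (correlations of -0.005, 0.086 and -0.028 over 5434 genes), so the numbers were not taken as pairs. With the replicate block, *arp2* had an adjusted p of 0.0639 and *ain1* of 0.0386, and 4 members were lower. *ain1*, *arp3* and *wsp1* had 105 counts or fewer in every library, which limits the precision of their fold changes.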
